A study of Mus musculus with 6 samples.

Results

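The 36 genes described here encode the autophagy machinery, from the kinase complex that starts the process to the receptors that load cargo. They were chosen by gene symbol, 36 of the 55421 genes in the count table, and all 36 had enough counts to be tested. The study measured messenger RNA by sequencing in wild-type mouse macrophages, which had been derived from marrow cells under the growth factor M-CSF. The untreated group held 3 samples in RPMI-1640 with 20 ng/mL M-CSF, 10% fetal bovine serum and 1% penicillin/streptomycin. The conditioned-medium group held 3 samples kept in 50% of that medium and 50% of the supernatant of LL-2, a mouse line of Lewis lung carcinoma. The same M-CSF, serum and antibiotic amounts are listed for both groups, and whether they hold for the final mixture is not known here. All were lysed after 24 h. The labels give no strain, age or sex and do not tie samples to animals, and the spread behind each p-value, which is that among these samples, may therefore be technical. Samples in medium conditioned by other cells, or in fresh medium diluted without tumour-cell products, were not analysed here. Tumour-cell products, conditioning as such and any dilution of M-CSF and nutrients therefore cannot be told apart.

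In macroautophagy a membrane sheet, the phagophore, grows around cytoplasm, closes into an autophagosome and fuses with a lysosome. The ULK1 kinase complex starts the process, a lipid kinase complex built on PIK3C3 and BECN1 marks the site, WIPI and ATG2 proteins with the scramblase ATG9A enlarge the sheet, and enzymes related to the ubiquitin cascade attach LC3 and GABARAP proteins to the lipid phosphatidylethanolamine. Cargo receptors bind cargo, which in many cases is ubiquitinated, and LC3 or GABARAP proteins at the same time. In macrophages the pathway clears damaged organelles and intracellular bacteria, and much of its control lies in phosphorylation and protein turnover, so transcript levels do not measure its flux.

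The libraries held 24179548 to 30040682 counts, each conditioned-medium library more than each untreated one, and the 36 genes took 0.293% to 0.303% of counts in untreated samples and 0.314% to 0.319% in conditioned medium. On the scaled level used below their sums overlapped, at 2968 to 3146 CPM (counts scaled to library size) and 3071 to 3123 CPM. The mitochondrial share of counts was 1.15% to 1.18% in untreated samples and 1.26% to 1.27% in conditioned medium, without overlap, and its part in the results was not tested. No member had fewer than 180 counts in any library. Of 7 macrophage markers 3 were higher and 3 lower, and they were abundant, with Lyz2 at 4.14% to 5.27% of counts. Of the markers fixed for other cells, 6 of the 6 tested mast cell and basophil markers and 3 of 7 dendritic cell markers were lower in conditioned medium, and 0 were higher. Their summed levels were low. The 8 mast cell and basophil markers summed to 20.4 to 29.2 CPM in untreated samples and 6.64 to 13.3 CPM in conditioned medium, with Cma1 at 0, and the 8 dendritic cell markers to 21.6 to 30.2 and 11.02 to 16.8 CPM. Of 8 neutrophil markers 1 was higher and 1 lower (355 to 511 and 447 to 531 CPM), and of 6 tested fibroblast markers 0 were called (16.6 to 67.4 and 31.7 to 93.9 CPM). Epithelial and carcinoma markers summed to 0.795 to 1.203 and 0.585 to 1.41 CPM, with Cldn4 at 0. Of 4 tested lymphocyte markers 1 was lower and 0 were higher, and of 6 erythroid markers 0 had enough counts to be tested. The part of these cells in the autophagy results was not tested. In such bulk samples fewer cells of a type and less RNA per cell cannot be told apart.

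Of the 36 genes, 21 changed in conditioned medium, 16 of them higher and 5 lower, and 15 did not pass the test. A change here is an adjusted p under 0.05 in edgeR's quasi-likelihood test, adjusted over all 13853 tested genes. Of all tested genes 27.9% were called, 12.6% higher and 15.2% lower, against 44.4% and 13.9% of the autophagy genes. The called share was higher at these genes' levels. Among the 8612 genes whose mean level lay within the range of the 36 (7.49 to 532 CPM), 34.1% were called, 16.1% higher and 18% lower. The changes were small. Called members moved by 0.16 to 0.90 on the log2 scale, and 0 of them by more than 2-fold, where 4.71% of all tested genes and 2.68% in the same range of levels were called beyond 2-fold. The median log2 fold change of the 36 was 0.082, against 0.013 over all genes, and the median size without sign was 0.185, against 0.175 over all genes and 0.132 over those in the same range of levels. The groups did not overlap for 23 of the 36, 17 with every conditioned-medium library higher and 6 with every one lower, where the background was 21.2% and 21.6% of all tested genes.

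These counts rested in part on single libraries and on the scaling. Without untreated replicate 2 there were 10 higher and 3 lower members, and without conditioned-medium replicate 1 there were 13 and 3. Without scaling beyond the total count there were 18 higher and 3 lower, and 60.8% of all calls were then higher, against 45.3% with scaling by the trimmed mean of M-values (TMM). The 11 members called without each library in turn and under every other setting run were Ulk1, Atg101, Uvrag, Wipi1, Atg2a, Atg2b, Atg4c, Nbr1 and Calcoco1, which were higher, and Sqstm1 and Optn, which were lower.

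**Figure D1:**
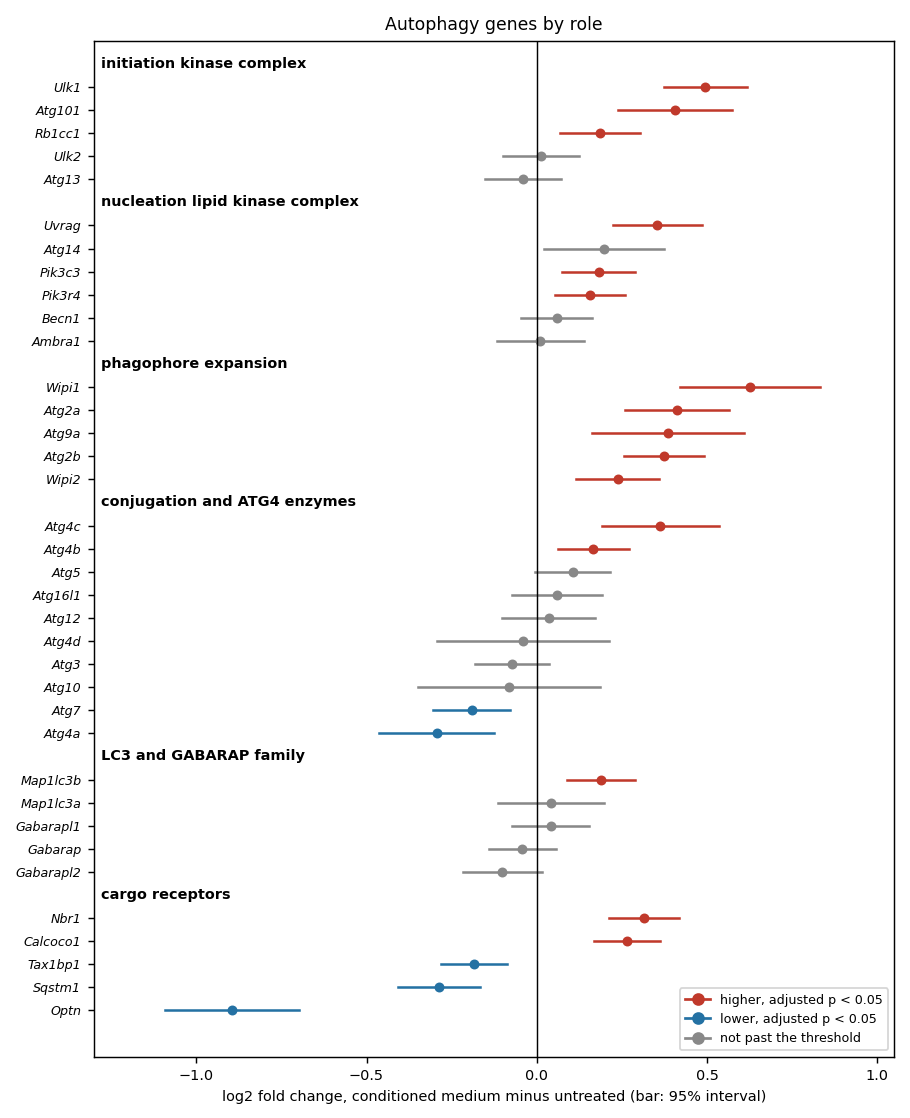
Log2 fold change (conditioned medium minus untreated, x axis) of each of the 36 genes with its 95% interval, grouped by role and coloured by the edgeR call. All 5 phagophore expansion genes lie right of 0, the cargo receptors lie on both sides, and Optn has the lowest value, -0.90.

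Upstream sequences were matched by symbol for 30 of the 36 genes, from RefSeq on GRCm38.p6, and 250 bases before each start were searched on both strands for 5 motifs. Some genes had several starts, and of the 34 windows only 22 were followed directly by 30 bases found in a GENCODE transcript of the gene, so part of the windows may not border a start that GENCODE annotates. The E-box CACGTG, bound by TFEB and related factors, occurred in 3 of the 30 (10.0%, Atg3, Atg5 and Atg7), against 6.86% of 27025 genes with a sequence and 9.86% of the 10060 of these that were tested. Of the 14 higher genes with a sequence 0 held it. The shorter core ACGTG, shared by hypoxia response elements and contained in every CACGTG, occurred in 13 of 30 (43.3%), against 18.5% of all and 24.7% of tested genes, and in 6 of the 14 higher, 3 of the 5 lower and 4 of the 11 other genes. The antioxidant response element TGACNNNGC occurred in 3 (10.0%, against 11.5% of all and 14% of tested genes). The forkhead site TGTTTAC and the interferon-stimulated response element, a pair of GAAA boxes with a short gap, occurred in 0, against 3.54% and 3.46% of all genes. A match is a description of letters and not a bound site. Shown are the genes with the largest rises, Wipi1 at chr11:109611433-109611639 (minus strand) and Ulk1 at chr5:110810098-110810331 (minus strand), the largest fall, Optn at chr2:5064118-5064367 (minus strand), a riser with the core, Uvrag at chr7:99141145-99141394 (minus strand), and 2 E-box genes with different calls, Atg5 at chr10:44268089-44268338 (plus strand) and Atg7 at chr6:114670846-114671095 (plus strand). The stretches of Wipi1, Ulk1 and Atg7 precede RefSeq starts that lie inside the deposited gene spans. Each runs 5′ to 3′ along the gene's strand. It stops where an annotated exon begins or, where the window holds none, at the end of the 250 bases. Capitals mark CACGTG or ACGTG on either strand.
Wipi1: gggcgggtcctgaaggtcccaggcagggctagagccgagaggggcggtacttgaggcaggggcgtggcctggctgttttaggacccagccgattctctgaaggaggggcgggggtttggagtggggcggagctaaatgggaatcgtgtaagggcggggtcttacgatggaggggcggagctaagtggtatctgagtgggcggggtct
Ulk1: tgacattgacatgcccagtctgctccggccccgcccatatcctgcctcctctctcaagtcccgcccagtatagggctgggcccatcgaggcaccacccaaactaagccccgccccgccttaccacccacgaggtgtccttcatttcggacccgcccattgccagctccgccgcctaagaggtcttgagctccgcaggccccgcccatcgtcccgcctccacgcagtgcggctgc
Optn: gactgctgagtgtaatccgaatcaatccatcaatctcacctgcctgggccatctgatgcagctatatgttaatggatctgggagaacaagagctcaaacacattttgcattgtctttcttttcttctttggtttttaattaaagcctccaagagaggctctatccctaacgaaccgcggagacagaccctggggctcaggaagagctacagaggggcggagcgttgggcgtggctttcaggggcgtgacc
Uvrag: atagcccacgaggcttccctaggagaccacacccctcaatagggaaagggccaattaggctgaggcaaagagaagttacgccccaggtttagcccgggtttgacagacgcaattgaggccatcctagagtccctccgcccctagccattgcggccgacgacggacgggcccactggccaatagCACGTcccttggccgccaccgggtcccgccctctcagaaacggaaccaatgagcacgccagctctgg
Atg5: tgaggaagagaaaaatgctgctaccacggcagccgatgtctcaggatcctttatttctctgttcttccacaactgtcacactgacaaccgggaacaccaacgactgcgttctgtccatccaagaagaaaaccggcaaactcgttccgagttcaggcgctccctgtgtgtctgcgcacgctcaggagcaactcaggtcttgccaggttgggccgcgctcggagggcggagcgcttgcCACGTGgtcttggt
Atg7: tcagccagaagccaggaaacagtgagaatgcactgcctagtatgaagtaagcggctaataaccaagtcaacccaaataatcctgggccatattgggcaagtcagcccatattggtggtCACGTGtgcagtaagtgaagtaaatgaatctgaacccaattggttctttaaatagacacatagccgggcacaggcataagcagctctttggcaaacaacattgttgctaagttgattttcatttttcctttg
The stretches of Wipi1, Ulk1 and Optn hold neither motif, that of Uvrag holds the core on the opposite strand, and those of Atg5 and Atg7 hold the E-box.

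Of the initiation complex, the kinase gene Ulk1 and the subunit genes Atg101 and Rb1cc1 rose, and the paralog Ulk2 and the adaptor gene Atg13 did not pass the test. The higher share was 60%, against 16.1% of all tested genes in the range of levels of the 36. Ulk1 (ENSMUSG00000029512, GRCm38 chromosome 5, 110784488 to 110810097) encodes the kinase that MTORC1 inhibits and AMPK activates. Its TMM-scaled level was 64.0, 62.2 and 68.2 CPM in untreated samples and 86.9, 90.6 and 96.4 CPM in conditioned medium. Every treated library lay above every untreated one, a 1.41-fold rise (log2 fold change 0.49, SE 0.05, adjusted p = 0.000176). Atg101, whose product stabilises ATG13, measured 27.3, 25.5 and 29.3 against 33.1, 37.5 and 38.3 CPM, again without overlap. It rose 1.32-fold (log2 fold change 0.41, SE 0.07, adjusted p = 0.00310). Rb1cc1, encoding the scaffold FIP200, measured 44.6, 42.1 and 45.8 against 48.0, 51.7 and 50.9 CPM and rose 1.14-fold (adjusted p = 0.0267). That call was lost with DESeq2 (adjusted p = 0.0675) and without 1 library in 4 cases (untreated 1 or 2, conditioned medium 2 or 3, adjusted p up to 0.112). Rb1cc1 shares 558 exon bases with 4732440D04Rik on the opposite strand (535 counts over all libraries, against 7746 for Rb1cc1), and as the strand setting is not given, its counts are uncertain to that extent, as are those of the overlapping genes below. Ulk2 was 78.1 ± 3.82 and 78.8 ± 2.46 CPM (SD, n = 3 per group here and below), with a 95% interval of its log2 fold change from -0.10 to 0.12. Within each library the ratio of Ulk1 to Ulk2, per kb of exon, was 0.714, 0.760 and 0.820 in untreated samples and 0.998, 1.04 and 1.17 in conditioned medium. The level of Ulk1 per length was thus below that of Ulk2 in each untreated sample and about equal to it or above in conditioned medium.

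Of the nucleation complex 3 of 6 genes rose (50%) and 0 fell, against 16.1% and 18% of all tested genes in the range of levels of the 36. Only 1 rose with DESeq2, or without library 1 or 2 of either group. Uvrag, whose product replaces ATG14 in the BECN1 complex that acts at endosomes and late in autophagy, rose most (ENSMUSG00000035354, chromosome 7, 98885021 to 99141141). It measured 85.0, 88.2 and 97.6 CPM in untreated samples and 117, 110.5 and 118 CPM in conditioned medium. The groups did not overlap, and the rise was 1.28-fold (log2 fold change 0.35, SE 0.06, adjusted p = 0.00172). The kinase gene Pik3c3 measured 43.7, 45.3 and 46.8 against 52.3, 51.9 and 49.8 CPM (1.13-fold, adjusted p = 0.0195). Pik3r4, encoding its regulatory subunit VPS15, measured 50.3, 47.3 and 50.6 against 55.3, 55.4 and 54.2 CPM (1.11-fold, adjusted p = 0.0320). Both calls were lost with DESeq2 (adjusted p = 0.0592 and 0.111) and when either library 1 or library 2 of either group was left out (adjusted p up to 0.0828 and 0.130). Atg14, whose product directs the complex to the site of initiation, measured 21.7, 19.4 and 23.9 against 25.1, 24.2 and 25.3 CPM. Its groups did not overlap either, but it missed the threshold (log2 fold change 0.20, SE 0.08, adjusted p = 0.0918). Atg14 passed with the replicate number as a block (adjusted p = 0.0258) and without scaling beyond the total count (adjusted p = 0.0274). It also passed without untreated replicate 3 (adjusted p = 0.0243) and without both libraries numbered 3. Becn1, encoding the central scaffold beclin 1, was 69.1 ± 0.569 and 71.9 ± 3.29 CPM (adjusted p = 0.399), with an interval from -0.05 to 0.16. Ambra1, encoding a BECN1 activator and ubiquitin ligase substrate receptor, was 61.6 ± 3.02 and 62.1 ± 3.40 CPM (adjusted p = 0.909). The ratio of Becn1 to Uvrag per kb of exon was 1.03, 1.01 and 0.901 in untreated and 0.745, 0.861 and 0.791 in conditioned-medium samples. On the opposite strand Becn1 (11520 counts) shares 3104 exon bases with Cntd1 (24 counts), and Uvrag (16976 counts) shares 1589 with Gm45187 (17 counts). How far this affects their levels and ratio is not known here.

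All 5 phagophore expansion genes rose (100%, against 16.1% higher among all tested genes in the range of levels of the 36). This was the only one of the 6 role groups in which every gene was called higher, though without untreated replicate 2 only 3 were. Wipi1, encoding a reader of phosphatidylinositol 3-phosphate, had the largest rise of the 36 (ENSMUSG00000041895, chromosome 11, 109573331 to 109611967). It measured 11.8, 12.9 and 14.5 CPM in untreated samples and 19.9, 18.9 and 21.7 CPM in conditioned medium. The lowest treated library stood above the highest untreated one, and the rise was 1.54-fold (log2 fold change 0.63, SE 0.09, adjusted p = 0.000872). Its paralog Wipi2, which recruits ATG16L1, rose less, from 53.8, 53.7 and 60.02 to 63.9, 66.7 and 66.9 CPM (1.18-fold, adjusted p = 0.0104, and 0.0546 without untreated replicate 2). The ratio of Wipi2 to Wipi1 per kb of exon therefore went from 1.91, 1.74 and 1.73 to 1.34, 1.47 and 1.29.

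The lipid transfer genes Atg2a and Atg2b both rose. Atg2a measured 54.1, 51.7 and 57.9 CPM in untreated samples and 69.8, 68.5 and 79.6 CPM in conditioned medium (log2 fold change 0.41, SE 0.07, adjusted p = 0.00180). Atg2b measured 34.4, 33.2 and 34.1 against 42.8, 42.6 and 46.4 CPM (log2 fold change 0.37, SE 0.05, adjusted p = 0.000702). In both genes the groups were apart, and whether they rose by different amounts was not tested. Their ratio per kb of exon was 2.75, 2.72 and 2.97 in untreated samples and 2.85, 2.82 and 3.00 in conditioned medium, overlapping between the groups and higher with treatment in each same-numbered pair. Atg9a, encoding the transmembrane scramblase, measured 28.6, 27.5 and 34.3 against 38.1, 35.9 and 44.1 CPM (log2 fold change 0.38, SE 0.10, adjusted p = 0.0178). Its samples numbered 3 were the highest of each group, and it missed the threshold in fits without untreated replicate 1 (adjusted p = 0.0683) or 2 (adjusted p = 0.0788). On the opposite strand Atg2b (6426 counts) shares 383 exon bases with Gskip (4318 counts), and Atg9a (5740 counts) shares 46 with Ankzf1 (3318 counts). On its own strand Atg9a shares 1832 exon bases with Gm29253 (0 counts).

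**Figure D2:**
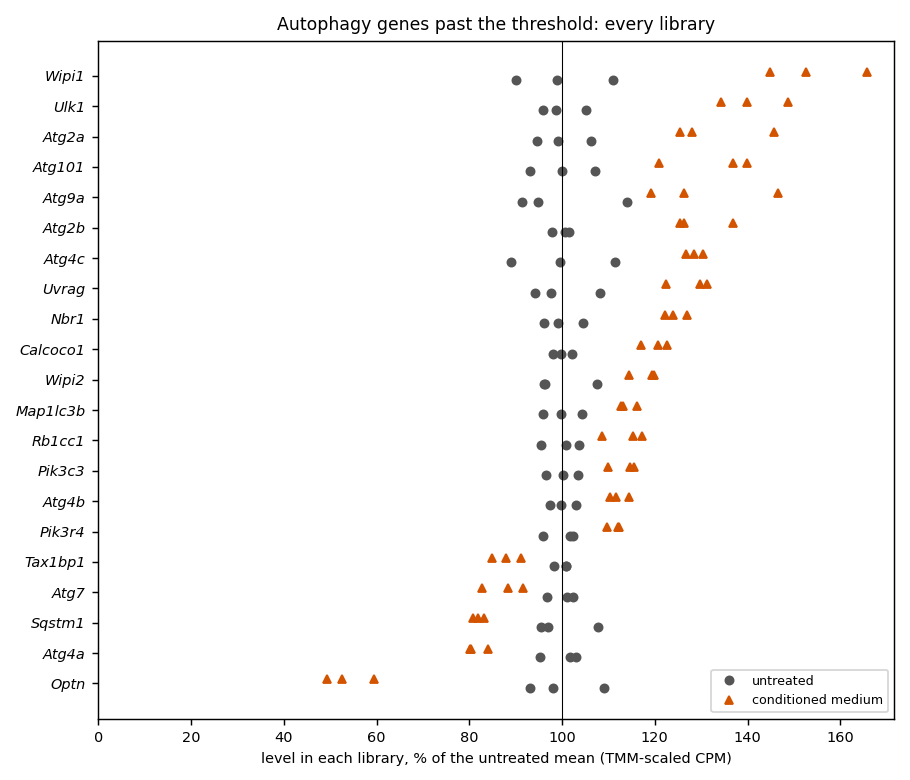
Level of the 21 called genes in each library as a percentage of the mean of the 3 untreated libraries (x axis, TMM-scaled CPM), with circles for untreated and triangles for conditioned-medium libraries. The groups do not overlap for any of the 21, and Optn and Wipi1 lie farthest from 100.

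Of the 10 conjugation genes 2 were higher (20%), 2 were lower (20%) and 6 had no call. These shares were near the 16.1% higher and 18% lower among all tested genes in the range of levels of the 36. Atg7, encoding the E1-like enzyme that activates both ATG12 and LC3, fell (ENSMUSG00000030314, chromosome 6, 114643097 to 114860614). It measured 86.0, 89.8 and 90.9 CPM in untreated samples and 78.6, 81.5 and 73.6 CPM in conditioned medium. The gap between the groups was narrower than the range of the treated group, and the fall was 1.14-fold (log2 fold change -0.19, SE 0.05, adjusted p = 0.0193). The call was lost without scaling beyond the total count (adjusted p = 0.0597) and without untreated replicate 2 or 3 or conditioned-medium replicate 1 (adjusted p = 0.0726, 0.0527 and 0.0593). The E2-like enzyme genes Atg3 (56.1 ± 1.051 and 53.3 ± 2.48 CPM, adjusted p = 0.308) and Atg10 (7.70 ± 0.311 and 7.27 ± 0.947 CPM, adjusted p = 0.660) did not pass the test. Nor did the genes of the ATG12, ATG5 and ATG16L1 complex that acts as the E3. Atg12 was 65.7 ± 4.81 and 67.3 ± 2.78 CPM (adjusted p = 0.714), and Atg16l1 was 35.98 ± 1.47 and 37.5 ± 2.20 CPM (adjusted p = 0.502). Atg5 was 56.8 ± 2.25 and 61.1 ± 2.02 CPM (adjusted p = 0.146), and passed only without scaling beyond the total count (adjusted p = 0.0217).

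The 4 ATG4 proteases, which expose the glycine of LC3 and GABARAP that is joined to lipid and later release it, moved in different directions. Atg4c measured 28.7, 32.1 and 25.7 CPM in untreated samples and 37.1, 37.6 and 36.6 CPM in conditioned medium. The treated libraries were close together and above all untreated ones (1.29-fold, log2 fold change 0.36, SE 0.08, adjusted p = 0.00632). Atg4b, whose product is the most active of the 4 on LC3, rose from 39.4, 40.7 and 38.5 to 45.2, 44.1 and 43.6 CPM (1.12-fold, adjusted p = 0.0260). Its call was lost with DESeq2 (adjusted p = 0.107) and without 1 library in 4 cases (untreated 1 or 3, conditioned medium 1 or 2, adjusted p up to 0.113). Atg4a, whose product prefers GABARAP proteins, fell 1.23-fold (13.0, 13.9 and 14.1 against 11.5, 10.9 and 11.0 CPM, log2 fold change -0.29, SE 0.08, adjusted p = 0.0171, and 0.0609 without untreated replicate 2). A near-identical copy, Atg4a-ps, held 14 counts over all libraries against 2000 for Atg4a. Atg4d was 17.9 ± 1.38 and 17.4 ± 2.77 CPM (adjusted p = 0.825). It shares 1405 exon bases with Kri1 on the opposite strand (2695 counts, against 2874 for Atg4d).

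Of the 5 LC3 and GABARAP family genes, Map1lc3b alone passed the test. This was 20% higher, near the 16.1% of all tested genes in the range of levels of the 36. Map1lc3b encodes LC3B, the usual marker of autophagosomes (ENSMUSG00000031812, chromosome 8, 121590361 to 121598760). Its transcript measured 200.4, 193 and 209 CPM in untreated samples and 227, 227 and 233 CPM in conditioned medium. The groups did not overlap, and the rise was 1.14-fold (log2 fold change 0.19, SE 0.04, adjusted p = 0.0119, and 0.0636 without untreated replicate 2). Map1lc3a had 22.9 ± 1.42 and 23.5 ± 1.29 CPM, Gabarapl1 113 ± 4.49 and 117 ± 5.34 CPM, and Gabarap 471 ± 16.2 and 457 ± 8.76 CPM. Gabarapl2, whose product also acts in Golgi transport, measured 46.1, 44.8 and 43.4 against 43.2, 42.3 and 39.7 CPM, without overlap but short of the threshold (log2 fold change -0.10, SE 0.05, adjusted p = 0.183). The 95% intervals of these 4 lay within -0.22 to 0.20. Whether Map1lc3b differs from them in its response was not tested. Map1lc3b shares 58 exon bases with Zcchc14 on the opposite strand, which held 1493 counts. Processed pseudogenes nearly identical to Map1lc3b and Gabarapl2 held few counts, at most 160 (Gm6055) against 35287 for Map1lc3b and 32 (Gm3724) against 7028 for Gabarapl2.

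Per kb of exon, Gabarap was the most abundant of the 36 genes in both groups. It made up 66.5% to 68.3% of the summed level of the family in untreated samples and 66.05% to 66.7% in conditioned medium. The share of Map1lc3b was 6.93% to 7.18% in untreated and 7.92% to 8.44% in treated samples, with no overlap. Sqstm1 ranked next, at 174 CPM per kb in untreated samples and 143 in conditioned medium, then Gabarapl1 (56.3 and 57.9), Map1lc3b (26.7 and 30.5) and Atg5 (24.2 and 26.0). Nbr1, Map1lc3a and Gabarapl2 followed at 20.0, 19.4 and 19.3 in untreated samples, where their libraries overlapped. The lowest in untreated samples were Atg4d (2.47), Atg2b (2.52) and Wipi1 (2.97), and in conditioned medium Atg4d (2.40), Atg2b (3.26) and Rb1cc1 (3.42). Exon length is that of all annotated isoforms together, so a gene with a long rarely used exon appears lower than it is.

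**Figure D3:**
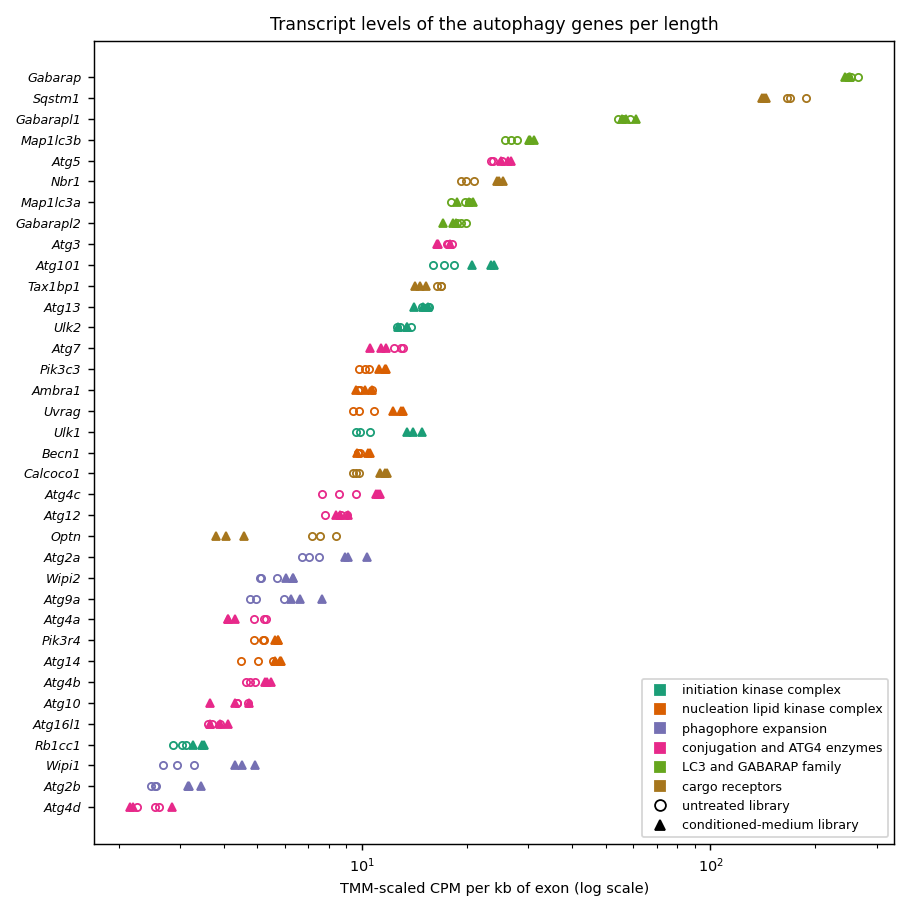
TMM-scaled CPM per kb of exon (x axis, log scale) of the 36 genes in each library, ordered by the untreated mean and coloured by role, with open circles for untreated and triangles for conditioned-medium libraries. Gabarap and Sqstm1 stand above the other genes, and Atg4d is at the bottom.

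All 5 cargo receptor genes changed, 2 higher (40%) and 3 lower (60%), against 16.1% and 18% of all tested genes in the range of levels of the 36. Optn, encoding optineurin, a receptor for damaged mitochondria and bacteria that TBK1 phosphorylates, had the largest change of the 36 (ENSMUSG00000026672, chromosome 2, 5020642 to 5064051). It measured 28.4, 31.5 and 26.9 CPM in untreated samples and 15.2, 17.2 and 14.3 CPM in conditioned medium. The groups were far apart, and the fall was 1.86-fold (log2 fold change -0.90, SE 0.09, adjusted p = 8.37e-05). Sqstm1, encoding p62, the receptor that links ubiquitin to LC3 and is itself degraded by autophagy, measured 566, 558 and 629 CPM against 473, 486 and 479 CPM (ENSMUSG00000015837, chromosome 11, 50199366 to 50210827). Each treated library was below each untreated one, a 1.22-fold fall (log2 fold change -0.29, SE 0.05, adjusted p = 0.00340). Sqstm1 shares 580 exon bases with Mrnip on the opposite strand (140 counts, against 85873). Tax1bp1, encoding a receptor that also restrains NF-kB signalling, measured 168, 169 and 164 against 142, 152 and 147 CPM. Its 1.14-fold fall (adjusted p = 0.0110) missed the threshold without scaling beyond the total count (adjusted p = 0.0509) and without conditioned-medium replicate 1 (adjusted p = 0.0637).

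The other receptors went the opposite way. Nbr1, a p62 partner that also takes peroxisomes as cargo, measured 144, 132 and 136 CPM in untreated samples and 168, 170.2 and 174 CPM in conditioned medium. It rose 1.24-fold with no overlap (log2 fold change 0.31, SE 0.05, adjusted p = 0.000816). Calcoco1, encoding a receptor for the endoplasmic reticulum and Golgi, measured 54.9, 54.0 and 56.2 against 66.4, 64.4 and 67.4 CPM (1.201-fold, log2 fold change 0.26, SE 0.04, adjusted p = 0.00168). The ratio of Sqstm1 to Nbr1 per kb of exon was 8.08, 8.65 and 9.46 in untreated samples and 5.77, 5.85 and 5.63 in treated samples. That of Nbr1 to Optn went from 2.77, 2.29 and 2.76 to 6.02, 5.41 and 6.67. Relative to Nbr1, each treated library thus held less Sqstm1 and Optn transcript than any untreated one.

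Related genes of the pathway showed no common direction. Their lists are set beside all tested genes. In the range of levels of the 36 the called shares were larger, 16.1% higher and 18% lower. Of 14 other core genes, 5 rose (35.7%) and 2 fell (14.3%), against 12.6% and 15.2% of all tested genes. Their median log2 fold change was 0.133. Zfyve1, encoding DFCP1, which marks the membrane where autophagosomes form, rose from 57.7 ± 3.30 to 71.8 ± 0.834 CPM (log2 fold change 0.31, adjusted p = 0.00149). Tecpr1, whose product helps autophagosomes fuse with lysosomes, fell from 309 ± 10.9 to 229.5 ± 9.23 CPM (log2 fold change -0.43, adjusted p = 0.000186). Irgm1, an interferon-induced GTPase gene linked to autophagy of bacteria, fell 1.98-fold (adjusted p = 0.00346). It measured 69.1, 80.9 and 106 CPM in untreated samples and 39.9, 34.8 and 55.1 CPM in conditioned medium, with the samples numbered 3 highest in both groups. Of 13 genes for fusion with lysosomes, 1 rose (7.69%) and 3 fell (23.1%), against the same 12.6% and 15.2% of all tested genes. Their median was -0.050, and 2 rose and 2 fell without scaling beyond the total count. The syntaxin gene Stx17 rose from 36.4 ± 0.872 to 42.1 ± 1.53 CPM (adjusted p = 0.0112, and 0.0513 without conditioned-medium replicate 1), and the tethering genes Plekhm1 (249 ± 13.0 to 202 ± 2.07 CPM, adjusted p = 0.00132) and Vps33a (136 ± 5.07 to 116 ± 0.155 CPM, adjusted p = 0.00363) fell.

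Of 17 tested receptors for mitochondria, the endoplasmic reticulum and ferritin, 2 rose and 3 fell (median 0.005), 11.8% and 17.6%, near the 12.6% and 15.2% of all tested genes. With the replicate number as a block 4 rose and 4 fell, and without scaling beyond the total count 6 rose and 3 fell. Bnip3, encoding a hypoxia-induced mitophagy receptor, measured 11.7, 11.8 and 13.6 CPM in untreated samples and 28.1, 27.9 and 29.8 CPM in conditioned medium. Its 2.31-fold rise (log2 fold change 1.21, SE 0.07, adjusted p = 5.78e-06) was larger than that of any of the 36 machinery genes. Retreg1, encoding the receptor FAM134B for the endoplasmic reticulum, fell 1.53-fold from 71.4 ± 2.13 to 46.7 ± 2.37 CPM (adjusted p = 3.3e-05). Ncoa4, encoding the ferritin receptor, fell 1.22-fold from 373 ± 10.4 to 305 ± 27.3 CPM (adjusted p = 0.00841).

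**Figure D4:**
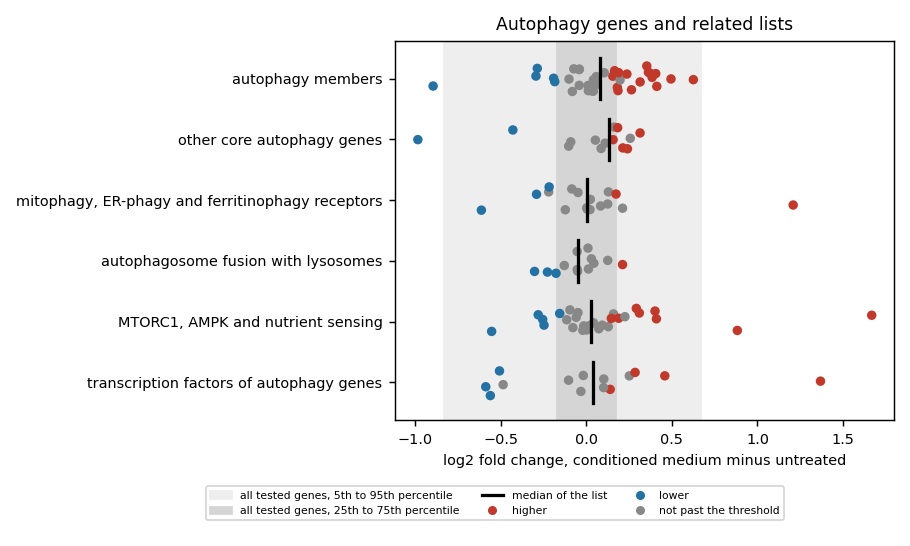
Log2 fold change (x axis) of each tested gene in the 36-gene set and 5 related lists, with points coloured by call and a black bar at the median of each list, over bands for the 5th to 95th and 25th to 75th percentile of all tested genes. The medians lie between -0.050 and 0.133, and Bnip3, Hif1a, Ddit4 and Deptor lie beyond the outer band on the right.

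Of the genes listed as acting upstream, Ddit4 and Hif1a had larger log2 fold changes than any of the 36. Of 28 genes of MTORC1, AMPK and nutrient sensing, 8 rose (28.6%) and 5 fell (17.9%), against 12.6% and 15.2% of all tested genes (median 0.029). Ddit4, encoding the MTORC1 inhibitor REDD1, measured 3.60, 3.59 and 3.21 CPM in untreated samples and 12.2, 10.6 and 10.3 CPM in conditioned medium (3.18-fold, log2 fold change 1.67, SE 0.12, adjusted p = 1.26e-05). Deptor, encoding an inhibitory MTOR partner, rose 1.84-fold from 32.0 ± 1.72 to 58.99 ± 2.18 CPM (log2 0.88, adjusted p = 6.32e-06), and shares 303 exon bases with Gm9920 on the opposite strand (318 counts, against 7648). Rragd, encoding a GTPase that recruits MTORC1 to lysosomes, fell 1.47-fold from 36.8 ± 1.78 to 25.1 ± 4.03 CPM (adjusted p = 0.00380).

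Of 14 transcription factor genes, 4 rose (28.6%) and 3 fell (21.4%), against 12.6% and 15.2% of all tested genes (median 0.042). Tfeb, encoding the factor known for driving lysosomal and autophagy genes, measured 76.8, 74.1 and 71.05 CPM in untreated samples and 50.1, 48.6 and 51.8 CPM in conditioned medium. All treated libraries lay below all untreated ones, a 1.47-fold fall (log2 fold change -0.56, SE 0.05, adjusted p = 3.98e-05). Its relatives were named after their values were seen. Mitf fell 1.42-fold from 82.4 ± 3.45 to 58.0 ± 1.19 CPM (adjusted p = 5.89e-05), Tfec rose 1.37-fold from 30.4 ± 1.52 to 41.7 ± 3.72 CPM (adjusted p = 0.00142), and Tfe3 was 161 ± 4.10 and 159 ± 4.09 CPM (adjusted p = 0.800). Hif1a, encoding the oxygen-regulated subunit of hypoxia-inducible factor, rose 2.58-fold (101 ± 4.45 and 261 ± 12.3 CPM, log2 fold change 1.37, SE 0.05, adjusted p = 4.57e-07), and shares 330 exon bases with Gm15283 on the opposite strand (127 counts, against 30899). Ddit3, encoding the stress factor CHOP, fell 1.502-fold from 15.5 ± 1.12 to 10.3 ± 1.35 CPM (adjusted p = 0.00298), and shares 68 exon bases with Mars on the opposite strand (5528 counts, against 2063).

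**Figure D5:**
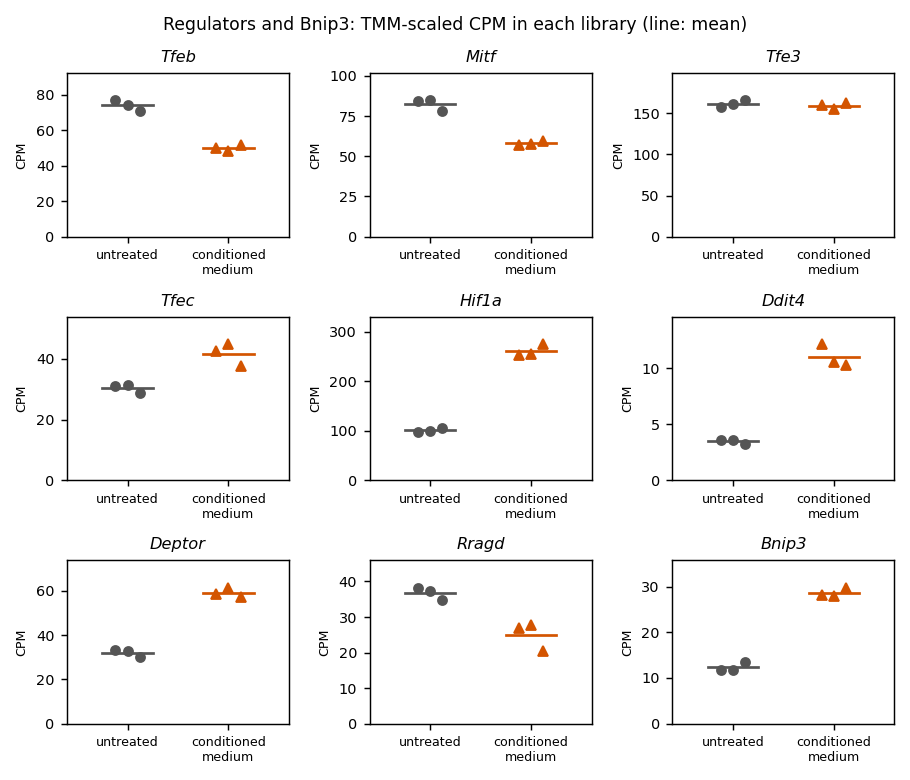
TMM-scaled CPM (y axis, from 0) of 9 related genes in each untreated (circles) and conditioned-medium (triangles) library, with a line at each group mean. The groups are apart for 8 of the 9 genes, higher for Tfec, Hif1a, Ddit4, Deptor and Bnip3 and lower for Tfeb, Mitf and Rragd, and they overlap for Tfe3.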

How the data were processed

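Per the labels' protocols, polyadenylated RNA was selected and copied from random primers. The deposited table holds raw counts per gene with exon coordinates and lengths. The submitters' processing notes name HISAT2, featureCounts and GRCm38. Not given in the sources used here are their versions, the annotation release, the strand setting and the handling of multi-mapping reads. Symbols came from GENCODE release M21, matched by identifier for 55240 of 55421 genes. The unmatched genes held 0.0017% of counts.

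In R 4.3.3, edgeR 4.0.16 kept genes by filterByExpr, scaled them by TMM and ran its quasi-likelihood test on the group alone, with Benjamini-Hochberg adjustment over 13853 genes. The scripts were tested on simulated data. A positive log2 fold change means higher in conditioned medium. Its standard error (SE) is its size over the root of the F statistic. CPM are TMM-scaled, and intervals are at 95%. Other settings tried were DESeq2 1.42.0, voom from limma 3.58.1, RLE or total-count scaling, 2 other filters, a replicate block and fits without some libraries.

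The groups share replicate numbers whose meaning no label gives. Deviations from the group means correlated at 0.328, 0.161 and 0.309 for samples of the same number, and at -0.289 to 0.011 for different numbers. Deviations cancel out within a group, so the values for different numbers are low in part by construction and are no separate evidence. By the rule used (every pair above 0.1) the numbers were taken to pair the samples. The calls nevertheless come from the fit on the group alone. Blocked values are given where they change the call of a named gene or clearly move a list's count. Within a group, libraries differed beyond counting noise (chi-square per degree of freedom 3.89 to 15.0), so each counts as 1 sample. For named genes that share exon bases with a gene on the opposite strand, that gene is given with its counts over all libraries. Neighbours with at most 28 counts were left out, apart from those given for Becn1, Uvrag and Atg9a. The counts of a neighbour do not show how many reads in shared bases were left unassigned.

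The members and lists were chosen with earlier results of these data known. Named were all members, the 3 largest called changes of each related list, and the relatives of Tfeb. Of the planned comparisons, that of protein sequences was not made, since no protein sequences were used here.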

Additional observations from a re-analysis of the deposited data

How the results depend on the processing

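Leaving out both libraries numbered 3 was chosen after seeing the data. No called member turned direction under any alternative run. Over all genes 3861 were called, 1749 higher and 2112 lower. Without scaling beyond the total count 2656 were higher, as the overall median moved from 0.013 to 0.070, and without 1 library 1146 to 1653 were higher. The 16 higher and 5 lower autophagy genes became 10 to 16 and 3 to 5 without 1 library. The lower genes were 3 without scaling beyond the total count, where Atg7 and Tax1bp1 were lost, and 3 without both libraries numbered 3, where Atg4a and Atg7 were lost (adjusted p 0.0712 and 0.0568). DESeq2 called 12 higher and 5 lower. The replicate block kept all 21 calls and added Atg14 (adjusted p = 0.0258), changing no other call among the 36 or the named related genes. It moved each related list's counts by at most 1, apart from the receptors for mitochondria, the endoplasmic reticulum and ferritin (2 to 4 higher). Over all tested genes the block called more genes higher and more lower than the 1749 and 2112 above. The background shares given in the text are those of the fit on the group alone, and with the block they would be larger. RLE scaling, limma-voom and both other filters kept the 21.

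Log2 fold changes of genes with no call crossed 0 in places. With 1 library left out they ran from -0.015 to 0.051 for Ulk2, -0.031 to 0.052 for Ambra1, -0.18 to 0.028 for Atg4d, -0.18 to 0.012 for Atg10, -0.023 to 0.078 for Atg12, -0.0088 to 0.083 for Map1lc3a, -0.0029 to 0.069 for Gabarapl1 and -0.0365 to 0.0022 for Tfe3. Without scaling beyond the total count they were 0.018 for Atg13, 0.017 for Atg4d, 0.016 for Gabarap and 0.041 for Tfe3. Without both libraries numbered 3 they were 0.049 for Atg10 and 0.0015 for Gabarap. At this depth (24179548 to 30040682 counts) the 15 members with no call had 95% intervals within -0.35 to 0.37.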
